A study of Mus musculus with 6 samples.

Results

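Raver2, Ptprd, Cyfip2, Anks1b, Alk, Syt7, Phyhipl and Golga7b are 8 genes, most of them studied mainly in neurons, that were lower in Pax6 mutant than in wildtype mouse cornea. They were chosen by that difference, so the difference itself is described here and not tested. They are 8 of the 55421 genes in the deposited counts, and all 8 had enough counts to be among the 15209 genes tested. The corneas came from mice 20 weeks old and gave 6 RNA-seq libraries, 3 wildtype (W1, W2 and W3) and 3 heterozygous for a mutant Pax6 (M1, M2 and M3). The series design calls the libraries of each genotype biological replicates. Which allele and strain were used, and whether corneas were pooled, is not stated in the labels, and neither group is described as carrying a transgene or receiving a treatment. The RNA came from whole tissue, so fewer cells of a type and less RNA per cell cannot be told apart in any of the values.

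Pax6 is a transcription factor with a paired domain and a homeodomain, needed for eye development and for keeping corneal epithelium in its own identity. In humans, loss of 1 copy causes aniridia, in which the cornea is later invaded by conjunctiva-like epithelium, vessels and inflammatory cells. The 8 genes have no single pathway in common. Ptprd and Alk encode receptors at the cell surface, Cyfip2 an actin regulator, Anks1b a scaffold of the postsynaptic density, Syt7 a calcium sensor of exocytosis, Golga7b a partner of protein palmitoyltransferases, Raver2 an RNA-binding protein and Phyhipl a little-studied protein related to a partner of phytanoyl-CoA hydroxylase. The cornea is densely innervated by sensory axons, whose cell bodies lie in the trigeminal ganglion outside the dissected tissue.

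Pax6 was 454, 394 and 356 CPM (counts relative to the TMM-scaled library size) in M1, M2 and M3, and 849, 746 and 774 CPM in W1, W2 and W3. It fell by 0.98 on the log2 scale (adjusted p = 0.0042, with edgeR's quasi-likelihood test and Benjamini-Hochberg adjustment over all genes tested). The corneal keratin Krt12, a defining marker of the labelled tissue, was 4145 CPM in the lowest library and 21773 CPM in the highest. Total gene counts ran from 16858005 to 21846406 per library. Some libraries stood apart within their group. W3 held 1372 CPM of retina and retinal pigment epithelium markers, against 11.9 to 69.2 CPM in the other 5 libraries. W1 held 12.9 CPM of melanocyte markers, against 195 to 428 CPM elsewhere. M1 had the most stromal keratocyte transcripts and was the only library with the sex-linked counts of a female.

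Promoter sequences are shown first because the genes were low together and Pax6 is a DNA-binding protein. RefSeq windows on GRCm38.p6, from 250 bases before to 50 bases after an annotated start, covered 6 of the 8 genes with 12 windows. Ptprd and Syt7 had no window in the table used. Of the 12 windows, several of them at Anks1b, 8 held 20 or more CG pairs, while 26.5% of all 32851 windows reached that number. All windows together cover 27025 gene symbols and were not limited to the genes tested, and their median was 7 CG pairs. Each of the 6 genes had at least 1 window with 20 or more, but the share of all genes with such a window was not counted. The sequences below give the first 280 bases of 4 windows, 5′ to 3′ on the gene's strand. For Alk (chr17:72604278-72604557, minus strand) the capitals mark TTCACGC, the core of the paired-domain consensus of Pax6. For Raver2 (chr4:101068788-101069067, plus strand) and for both RefSeq windows of Phyhipl (chr10:70599262-70599541 and chr10:70592783-70593062, minus strand) the capitals mark CG pairs, to show a dense window, and a dense and an empty one at the same gene. The gene model of Phyhipl used for its position extends upstream of both windows.
Alk: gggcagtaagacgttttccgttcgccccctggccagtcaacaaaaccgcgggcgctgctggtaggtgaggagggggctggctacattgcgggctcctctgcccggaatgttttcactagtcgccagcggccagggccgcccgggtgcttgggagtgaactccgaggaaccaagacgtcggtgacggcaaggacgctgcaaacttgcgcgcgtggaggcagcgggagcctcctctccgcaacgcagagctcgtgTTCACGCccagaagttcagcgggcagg
Raver2: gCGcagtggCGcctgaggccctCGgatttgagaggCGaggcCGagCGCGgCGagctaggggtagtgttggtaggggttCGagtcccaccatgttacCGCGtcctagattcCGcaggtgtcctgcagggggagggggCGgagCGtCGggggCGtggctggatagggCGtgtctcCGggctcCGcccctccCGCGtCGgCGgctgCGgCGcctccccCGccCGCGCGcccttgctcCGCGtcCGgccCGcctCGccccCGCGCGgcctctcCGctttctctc
Phyhipl, upstream start: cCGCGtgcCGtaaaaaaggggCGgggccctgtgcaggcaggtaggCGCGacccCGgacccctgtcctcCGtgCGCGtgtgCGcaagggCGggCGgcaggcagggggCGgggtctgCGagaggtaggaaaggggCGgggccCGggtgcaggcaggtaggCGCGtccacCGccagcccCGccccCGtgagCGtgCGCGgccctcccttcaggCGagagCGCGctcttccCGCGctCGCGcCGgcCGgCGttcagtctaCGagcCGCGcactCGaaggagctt
Phyhipl, downstream start: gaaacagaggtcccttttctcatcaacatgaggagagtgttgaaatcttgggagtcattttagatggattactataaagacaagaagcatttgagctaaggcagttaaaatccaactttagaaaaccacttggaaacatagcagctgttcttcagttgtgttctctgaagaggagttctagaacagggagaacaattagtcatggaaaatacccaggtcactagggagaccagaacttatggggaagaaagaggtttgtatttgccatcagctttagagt

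The 300-base windows held 41 CG pairs at Raver2, 43 and 0 at Phyhipl, and 28 at Alk. Cyfip2 had 29 and Golga7b 4 and 23. The 5 windows of Anks1b ran from 3 to 45. TTCACGC was searched on both strands and lay in 1 of the 12 windows, that of Alk, on the forward strand from base 254 of the window, just past the start. It lay in 1.26% of all windows. The letters TAAT and ATTA with 3 bases between them, a pair of facing homeodomain half-sites, lay in 0 of the 12 windows and in 0.487% of all. TTCAGCACC and GGACAGC, the left and right parts of the element bound by the neuronal repressor REST, lay in 0 of the 12 windows, and in 0.371% and 6.56% of all. TATAAA lay in 1 of the 12, at Phyhipl, and in 13.6% of all. No motif contains another, and a match describes the letters in a window, not a bound site.

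**Figure D1:**
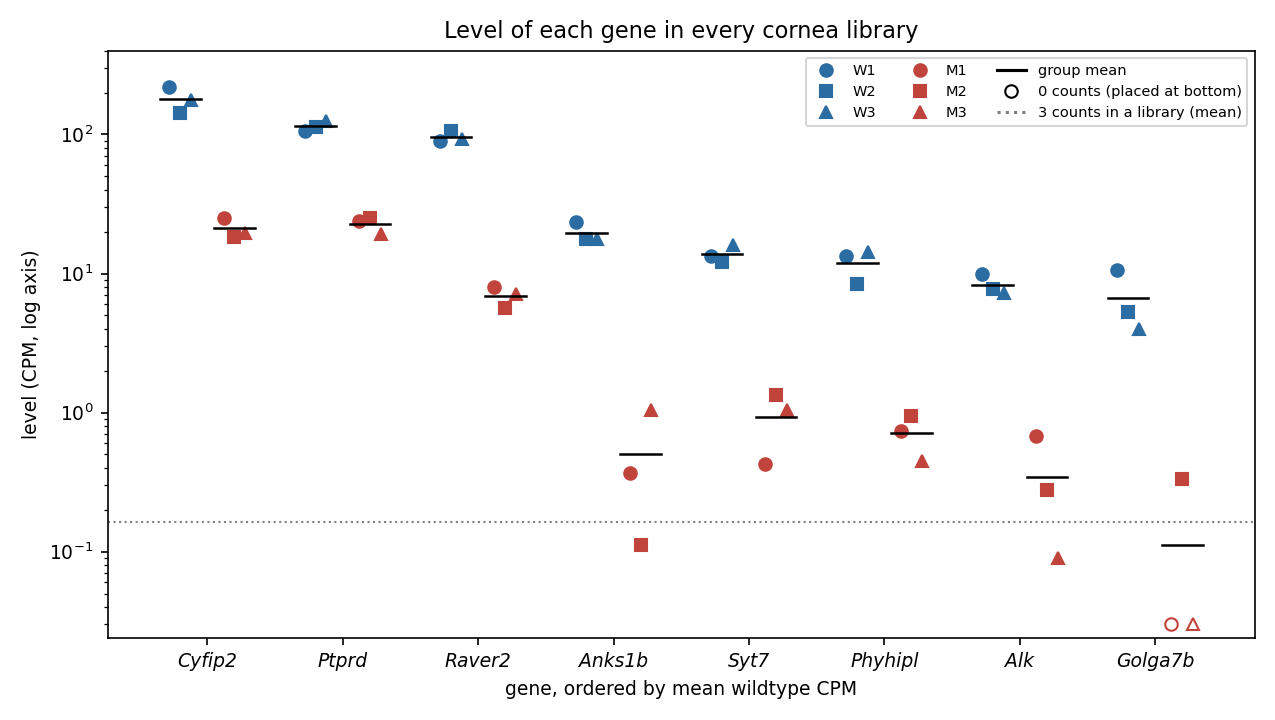
Level of each of the 8 genes (vertical axis, CPM on a log axis) in each wildtype (blue) and mutant (red) library, ordered by mean wildtype level; black bars are group means, open symbols mark 0 counts and the dotted line is the mean level of 3 counts. For every gene the 3 red points lie below the 3 blue points, and only Golga7b has libraries at 0 counts.

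Ptprd (ENSMUSG00000028399, GRCm38 chr4:75941238-78211961, minus strand) encodes receptor-type protein tyrosine phosphatase delta, a LAR-type adhesion receptor of presynaptic membranes. It was 106, 113 and 125 CPM in W1, W2 and W3 and 24.0, 25.1 and 19.2 CPM in M1, M2 and M3. All 3 mutant libraries were low, and they lay close together. The mean was 115 ± 9.13 CPM in wildtype and 22.8 ± 3.12 CPM in mutant (SD, n = 3 libraries per group here and in all later means), which was 5.04-fold lower, with a log2 fold change of -2.33 ± 0.15 (SE). Ptprd thus had the smallest decrease of the 8, although its wildtype libraries varied least, with a coefficient of variation of 7.96%.

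Alk (ENSMUSG00000055471, chr17:71868972-72604627, minus strand) encodes anaplastic lymphoma kinase, a receptor tyrosine kinase of the insulin receptor superfamily. It was 9.87, 7.72 and 7.27 CPM in W1, W2 and W3, from 174, 136 and 136 counts. In M1, M2 and M3 it was 0.673, 0.277 and 0.0900 CPM, from 11, 5 and 2 counts. The wildtype libraries were alike, and the mutant libraries were all near the limit of detection, M3 below the 0.135 CPM that 3 counts were worth there. The mean was 23.9-fold lower in mutant (0.347 ± 0.298 against 8.29 ± 1.39 CPM), and the log2 fold change was -4.60 ± 0.65.

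Cyfip2 (ENSMUSG00000020340, chr11:46193850-46312859, minus strand) encodes a subunit of the WAVE regulatory complex, which couples the small GTPase Rac to branched actin, and binds the fragile X protein FMRP. It was 219, 143 and 178 CPM in W1, W2 and W3 and 25.3, 18.4 and 19.7 CPM in M1, M2 and M3. The wildtype libraries differed among themselves by far more CPM than the mutant libraries did, without any overlap of the groups. The mean was 8.54-fold lower in mutant (21.1 ± 3.67 against 180 ± 38.2 CPM), with a log2 fold change of -3.09 ± 0.20.

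Anks1b (ENSMUSG00000058589, chr10:89873509-90973300, plus strand) encodes AIDA-1, an ankyrin-repeat and SAM-domain scaffold of the postsynaptic density. It was 23.3, 17.8 and 17.8 CPM in W1, W2 and W3, from 411, 314 and 332 counts. In M1, M2 and M3 it was 0.367, 0.111 and 1.04 CPM, from 6, 2 and 23 counts. M3 was thus the highest of 3 very low libraries, and M2 lay below the 0.166 CPM that 3 counts were worth there. The mean was 38.9-fold lower in mutant (0.505 ± 0.477 against 19.6 ± 3.19 CPM). The log2 fold change was -5.21 ± 0.61 and became -6.35 when M3 was left out.

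Syt7 (ENSMUSG00000024743, chr19:10389090-10453180, plus strand) encodes synaptotagmin-7, a C2-domain calcium sensor of slow vesicle release and of lysosome exocytosis. It was 13.3, 12.1 and 16.0 CPM in W1, W2 and W3 and 0.428, 1.33 and 1.04 CPM in M1, M2 and M3. Every mutant library was near or under 1 CPM. The mean was 14.8-fold lower in mutant (0.932 ± 0.460 against 13.8 ± 2.01 CPM), with a log2 fold change of -3.87 ± 0.43.

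Golga7b (ENSMUSG00000042532, chr19:42247574-42270348, plus strand) encodes a relative of the palmitoyltransferase subunit Golga7 and binds the palmitoyltransferase Zdhhc5. It was 10.6, 5.28 and 4.01 CPM in W1, W2 and W3, from 187, 93 and 75 counts. M1 and M3 had 0 counts and M2 had 6 counts, or 0.333 CPM. The wildtype libraries were themselves uneven, with W1 the highest and a coefficient of variation of 52.8%. The mean was 59.8-fold lower in mutant (0.111 ± 0.192 against 6.63 ± 3.50 CPM), with a log2 fold change of -5.85 ± 1.11. Against the wildtype mean, 3 counts over M1 and M3 together, a level of 0.0778 CPM, would be 85.2-fold lower. That value uses only the mutant libraries at 0 counts and leaves out the wildtype spread, so it is not a lower bound for the genotype. With counts pooled within each group Golga7b was 62.1-fold lower, with a 95% counting interval of 28.2 to 170.

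Raver2 (ENSMUSG00000035275, chr4:101068983-101152370, plus strand) encodes a protein with RNA recognition motifs that binds the splicing regulator PTB. It was 89.9, 106 and 93.4 CPM in W1, W2 and W3 and 7.96, 5.60 and 7.07 CPM in M1, M2 and M3. Both groups were tight. The mean was 14.0-fold lower in mutant (6.88 ± 1.19 against 96.4 ± 8.31 CPM), with a log2 fold change of -3.81 ± 0.17.

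Phyhipl (ENSMUSG00000037747, chr10:70557682-70655965, minus strand) encodes a protein similar to the phytanoyl-CoA hydroxylase-interacting protein Phyhip. It was 13.3, 8.35 and 14.2 CPM in W1, W2 and W3 and 0.735, 0.943 and 0.450 CPM in M1, M2 and M3. All mutant libraries lay under 1 CPM, while W2 was the lowest of the wildtype libraries. The mean was 16.8-fold lower in mutant (0.709 ± 0.248 against 11.9 ± 3.16 CPM), with a log2 fold change of -4.07 ± 0.42. Exons of Phyhipl share 1055 bases with Fam13c on the other strand, which had 0 to 70 counts per library. Whether the counting used strand is not stated in the labels, so a part of the Phyhipl counts is uncertain. In W1, where Fam13c had 0 counts, Phyhipl was at 13.3 CPM. Exons of Syt7 share 384 bases with Gm26859 and those of Raver2 4 bases with Jak1, both on the other strand.

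In all 8 genes every mutant library was below every wildtype library, as was so for 14.7% of all genes tested. The median log2 fold change of the 8 was -3.97, against 0.01 over all genes tested, and 1.63% of those had a value of -2 or lower. Both follow from the choice of the genes. The shared low level in mutant was not equally deep. Ptprd, Cyfip2 and Raver2 kept mutant means of 22.8, 21.1 and 6.88 CPM, whereas the other 5 (Anks1b, Alk, Syt7, Phyhipl and Golga7b) had means under 1 CPM. Only 4 of the 8 had at least 10 counts in every mutant library. No single wildtype library carried the pattern: W1 was highest for 4 genes, W3 for 3 and W2 for 1. With W1 and W3 both left out, the log2 fold changes ran from -5.55 for Golga7b to -2.35 for Ptprd.

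Levels were compared between genes per kb of annotated exon in wildtype. Cyfip2 was the highest at 25.4 ± 5.37 CPM per kb, followed by Raver2 at 15.2 ± 1.31 and Ptprd at 5.03 ± 0.400. The next were Golga7b at 2.22 ± 1.17, Syt7 at 1.85 ± 0.268 and Anks1b at 1.35 ± 0.220, and the lowest were Phyhipl at 1.23 ± 0.324 and Alk at 1.07 ± 0.179 CPM per kb. Cyfip2, Raver2 and Ptprd were above the median tested gene, at 2.85 CPM per kb, and the other 5 were below it. The ranges over the wildtype libraries overlapped between Golga7b and Syt7, between Anks1b and Phyhipl and between Phyhipl and Alk, so these neighbours are not ordered beyond their spread. Ranges of the other neighbours did not overlap.

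The length of the gene from start to end was not itself used in the choice, but it is not independent of it. Calls in both directions were more frequent among longer genes, as given under Other observations. All 8 were longer than the median tested gene of 21.4 kb, with a median of 109 kb. Ptprd spanned 2271 kb, and 0.00658% of the genes tested were longer. Anks1b spanned 1100 kb and Alk 736 kb, with 0.197% and 0.520% of genes longer. The others were Cyfip2 at 119 kb, Phyhipl at 98.3 kb, Raver2 at 83.4 kb, Syt7 at 64.1 kb and Golga7b at 22.8 kb. The 3 longest had neither the 3 largest nor the 3 smallest decreases, since Ptprd had the smallest and Anks1b the second largest.

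The levels of the 8 genes were set beside those of neuron markers. The summed level of the 8 genes was 486, 413 and 455 CPM in W1, W2 and W3 and 59.4, 52.0 and 48.6 CPM in M1, M2 and M3. The summed level of 20 neuron markers was 41.7, 45.0 and 228 CPM in W1, W2 and W3 and 46.3, 38.8 and 50.4 CPM in M1, M2 and M3. The 8 genes separated the genotypes, whereas the neuron markers separated W3 from the other 5 libraries. Of the 20 neuron markers, 10 were at 0 counts in W1, 6 in W2 and 0 in W3, and 3, 5 and 1 in M1, M2 and M3. Snap25, a SNARE protein of synaptic vesicle fusion, was 0.0567, 0.114 and 29.7 CPM in W1, W2 and W3. Map2, a microtubule-associated protein of dendrites, made up most of the marker sum outside W3. It ran from 34.2 CPM in W2 to 64.6 CPM in W3, with W1 near W2, and was 28.5, 25.0 and 30.9 CPM in M1, M2 and M3. Map2 was thus lower in all 3 mutant libraries, and it did not pass the test (log2 fold change -0.66 ± 0.26, adjusted p = 0.157, edgeR). Of the 8 neuron markers with enough counts, 0 passed the test in either direction, and none of the 20 is among the 8 genes. Apart from Map2, no neuron marker was higher in all 3 wildtype than in all 3 mutant libraries, as each of the 8 genes was. Most of the 20 markers had too few counts to be tested, and cell bodies of the sensory axons lie outside the tissue. These markers therefore cannot decide whether RNA of the 8 genes came from neurons, and the genes are called by their names.

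**Figure D2:**
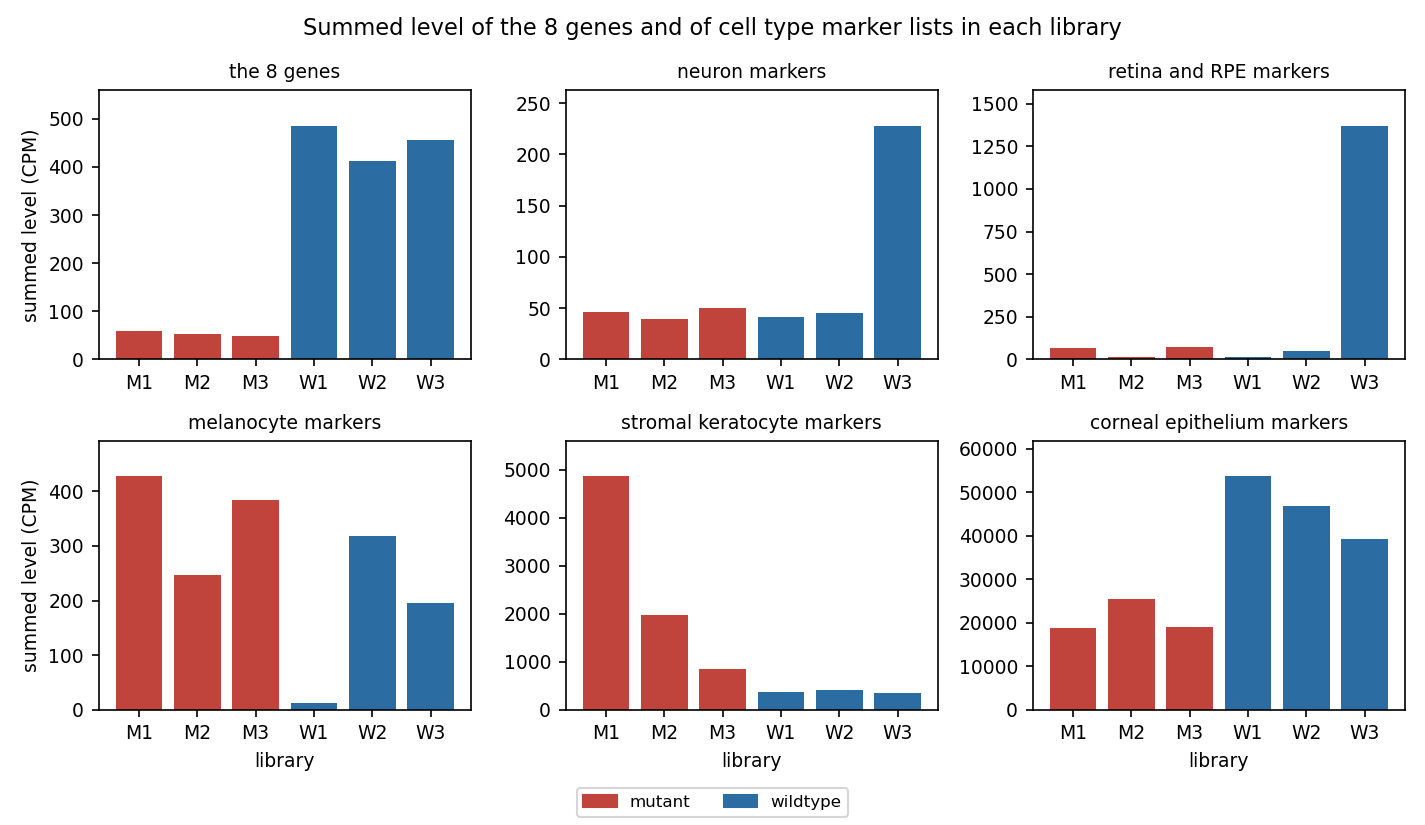
Summed level (vertical axes, CPM, each from 0) of the 8 genes and of 5 lists of cell type markers in each mutant (red) and wildtype (blue) library. The 8 genes and the corneal epithelium markers are higher in all 3 wildtype libraries, the neuron and retina markers are high only in W3, and melanocyte markers are near 0 only in W1.

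Markers of other cell types also differed between the genotypes, and their part in the decrease of the 8 genes was not tested. Sensory neuron markers summed to 9.82 to 12.4 CPM in wildtype and 13.8 to 31.0 CPM in mutant, almost all from Piezo2, and the neuropeptide gene Calca was at 0 counts in 5 libraries and 0.0535 CPM in W3. Schwann cell markers summed to 535 to 702 CPM in wildtype and 618 to 661 CPM in mutant, and 0 of the 11 tested passed. Most of that sum came from Erbb3 and Mbp. The lower Cdh19 (0.408 ± 0.398 CPM in wildtype and 2.80 ± 1.47 CPM in mutant) and Pmp22 (5.93 ± 3.01 and 11.0 ± 2.64 CPM) were higher in all 3 mutant libraries, with adjusted p of 0.148 and 0.264 from edgeR. Ngfr went the other way and was lower in all 3 mutant libraries (26.4 ± 3.73 and 20.3 ± 1.16 CPM, adjusted p = 0.196 from edgeR). Corneal epithelium markers summed to 39212 to 53719 CPM in wildtype and 18735 to 25372 CPM in mutant, with 5 of 10 lower, 0 higher and a median log2 fold change of -0.88. Of those markers Slurp1 (-2.14), Tkt (-1.83) and Krt12 (-1.82) had the largest decreases, and the mutated gene Pax6 is itself among the 5. Clu went the other way and was higher in all 3 mutant libraries (219 ± 41.1 CPM in wildtype and 365 ± 94.8 CPM in mutant, adjusted p = 0.068 from edgeR). The 8 genes were chosen by their decrease, so its size cannot be weighed against that of the markers. Leukocyte markers summed to 36.6 to 50.7 CPM in wildtype and 180 to 223 CPM in mutant, with 8 of 9 higher. Stromal keratocyte markers summed to 348 to 406 CPM in wildtype and 846 to 4864 CPM in mutant, with 5 of 9 higher. Conjunctival and goblet markers summed to 5177 to 8612 CPM in wildtype and 16310 to 17629 CPM in mutant, with 5 of 8 tested higher. Over all genes tested, 4.46% were lower and 5.59% higher at an adjusted p under 0.05, which is 10.1% in either direction.

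The closest relatives of the 8 genes were chosen by family and not by their values. Of 24 relatives, 15 had enough counts, and 1 fell, 1 rose and 13 did not pass the test, with a median log2 fold change of -0.09. Outside the synaptotagmins 0 of 6 passed, by edgeR's quasi-likelihood test after Benjamini-Hochberg adjustment. Ptprf, the LAR phosphatase, was 949 ± 258 CPM in wildtype and 812 ± 51.9 CPM in mutant (log2 fold change -0.22 ± 0.19, adjusted p = 0.55), and Ptprs was 382 ± 65.0 and 374 ± 40.0 CPM (-0.03 ± 0.16, adjusted p = 0.94). Both were far above Ptprd in either genotype, on the per-length scale as well as in CPM. Per kb, Ptprd was 3.91 ± 1.04% of the trio's summed level in wildtype and 0.873 ± 0.140% in mutant.

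Cyfip1, the other subunit that can fill the place of Cyfip2 in the WAVE complex, was 191 ± 31.9 CPM in wildtype and 175 ± 5.45 CPM in mutant (log2 fold change -0.13 ± 0.14, adjusted p = 0.64 from edgeR). The lack of a call does not show that it was unchanged. Per kb, Cyfip2 made up 62.1%, 56.2% and 64.9% of the summed Cyfip level in W1, W2 and W3, and 20.0%, 15.1% and 15.5% in M1, M2 and M3. On this per-length scale Cyfip2 was the more abundant of the pair in every wildtype library and the less abundant in every mutant library. The order in wildtype depends on the exon lengths used. In CPM, without that scaling, Cyfip1 was above Cyfip2 in W1 (225 against 219) and W2 (187 against 143) and below it in W3 (162 against 178). The summed level was 41.4 ± 7.36 CPM per kb in wildtype and 17.6 ± 0.411 CPM per kb in mutant. Exons of Cyfip1 overlap those of Nipa2 on the other strand, which adds uncertainty to its counts.

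Anks1 is the nearest relative of Anks1b, and it was 53.6 ± 6.18 CPM in wildtype and 57.0 ± 9.43 CPM in mutant (log2 fold change 0.09 ± 0.16, adjusted p = 0.79 from edgeR). The share of Anks1b in the pair, per kb, was 20.5 ± 3.80% in wildtype and 0.667 ± 0.716% in mutant. Golga7 was 75.0 ± 4.56 and 70.6 ± 5.65 CPM (-0.09 ± 0.12, adjusted p = 0.71), and the share of Golga7b was 16.3 ± 7.82% and 0.340 ± 0.589%. Phyhip was 250 ± 54.9 and 213 ± 26.4 CPM (-0.23 ± 0.18, adjusted p = 0.49), and the share of Phyhipl was 1.44 ± 0.435% and 0.101 ± 0.0422%. In these pairs the relative was the more abundant gene in both genotypes. Ltk, the only close relative of the Alk receptor, had too few counts to be tested. Raver1 was listed at 0 counts in all 6 libraries, and 3459 of its 3470 exon bases lie in another annotated gene on the same strand, so its level could not be read from these counts.

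**Figure D3:**
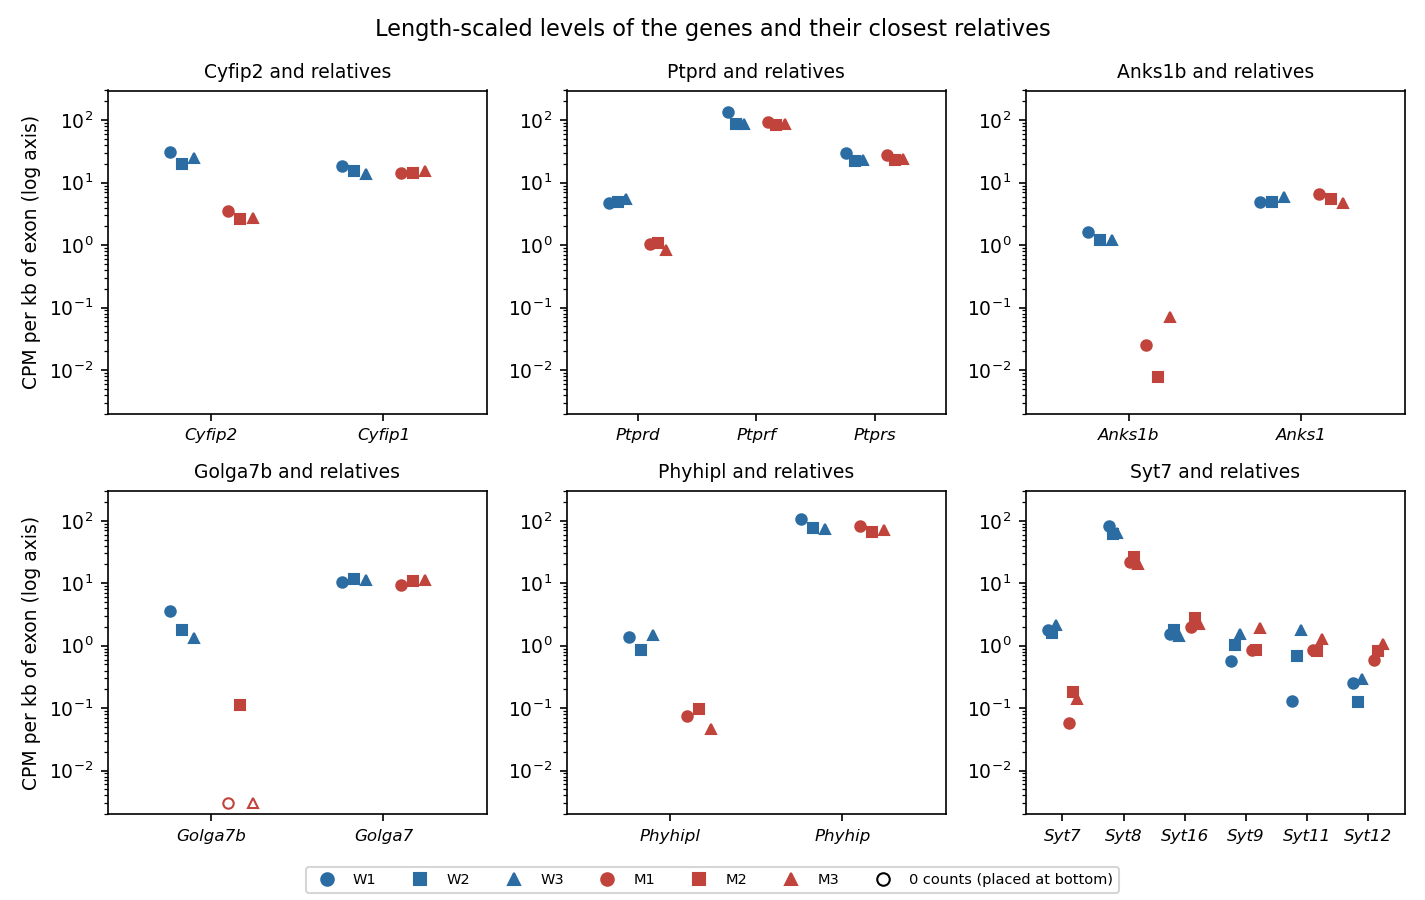
Level per kb of annotated exon (vertical axes, CPM per kb on a log axis) of 6 of the genes and of their relatives in each wildtype (blue) and mutant (red) library; open symbols mark 0 counts, and 5 of the 16 other synaptotagmins are drawn. The named gene of each panel is lower in all 3 mutant libraries, while the relatives outside the synaptotagmins overlap between the genotypes.

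Among the other synaptotagmins, Syt8 was 158, 116 and 123 CPM in W1, W2 and W3 and 40.8, 49.7 and 38.1 CPM in M1, M2 and M3. Syt8 fell by 1.62 on the log2 scale (SE 0.17, adjusted p = 0.0013, edgeR's quasi-likelihood test), and its adjusted p was at most 0.0097 under the alternatives tried. It was the most abundant synaptotagmin of wildtype cornea per kb. Syt12 rose from 1.23 ± 0.488 to 4.61 ± 1.34 CPM (log2 fold change 1.90 ± 0.50, adjusted p = 0.049), a call that was kept on leaving out W1 and lost on leaving out any other library, with adjusted p from 0.076 to 0.21. Syt16 was 14.5 ± 1.58 CPM in wildtype and 21.4 ± 3.65 CPM in mutant and did not pass (adjusted p = 0.11), nor did Syt3, Syt9, Syt11 and Syt14. Syt15 and Syt17, at 1.42 ± 1.82 and 1.14 ± 0.701 CPM in mutant, had too few counts to be tested. Syt1, the calcium sensor of fast synaptic release, was 0, 0.908 and 42.4 CPM in W1, W2 and W3 and 1.83 to 3.98 CPM in mutant, so that its level followed W3 and not the genotype. Syt4 was at 1.07 ± 1.85 CPM in wildtype and was not tested. Syt7 made up 2.35 ± 0.319% of the summed level of synaptotagmins 1 to 17 per kb in wildtype and 0.413 ± 0.184% in mutant.

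Partners and pathway genes were taken from lists by function. Of 190 such genes 153 were tested, of which 7 (4.58%) fell and 11 (7.19%) rose, and the median log2 fold change was 0.08. These shares lay near those of all genes tested. Of the 18 calls, 7 were kept under all alternatives, among them Homer2, Dlg2 and Ppfibp2 in the lower direction and Rab27a, Ptn and Ptprc in the higher. Exons of Ppfibp2, Il1rap, Irs1 and Rab27a, and of the relatives Syt12 and Golga7, also overlap those of other genes, which makes their counts less certain.

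Synapse organisers and scaffolds held 3 of the 7 genes that fell, among 21 tested (14.3%, against 4.46% of all genes tested), with 1 that rose (4.76%, against 5.59%). Homer2, a scaffold of the postsynaptic density that is also found outside neurons, was 281, 239 and 224 CPM in wildtype and 23.1, 30.6 and 10.8 CPM in mutant (log2 fold change -3.53 ± 0.35, adjusted p = 0.0011 from edgeR). Dlg2, the membrane-associated guanylate kinase PSD-93, was 83.6, 79.1 and 84.2 CPM in wildtype and 33.4, 32.0 and 30.8 CPM in mutant (-1.36 ± 0.11, adjusted p = 0.00061). As with the 8 genes, Homer2 and Dlg2 were higher in every wildtype library than in any mutant library. The part of neural tissue in their levels was not tested. Exons of both overlap those of other annotated genes, which had at most 80 counts in any library, and their counts are uncertain to that extent. Dlg3 rose by 0.45 ± 0.11 on the log2 scale (adjusted p = 0.044), a call lost on leaving out any library, with adjusted p from 0.053 to 0.195. Dlg3 was the only gene of this list called in the higher direction. Log2 fold changes over the tested genes of the list ran from -3.53 to 1.42. Of 10 neuronal RNA-binding proteins tested 0 passed.

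**Figure D4:**
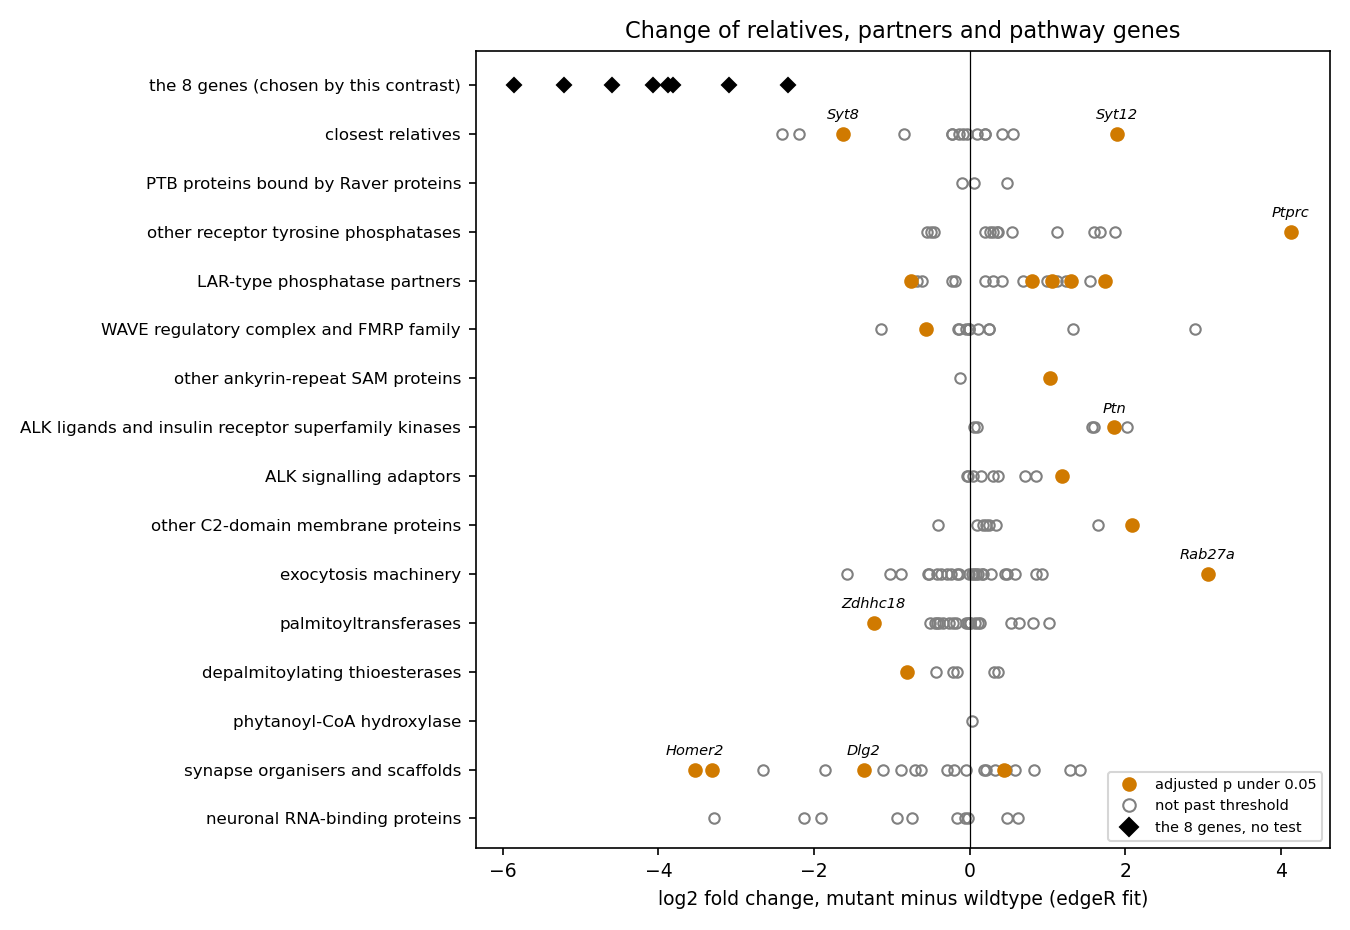
Log2 fold change, mutant minus wildtype, of the 8 genes (black diamonds, not tested) and of their relatives, partners and pathway genes (circles, filled where the adjusted p from edgeR was under 0.05), one row per list. The 8 genes lie between -5.85 and -2.33, and most listed genes lie near 0 and are open.

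The receptors Ptprd and Alk have partners outside and inside the cell. Of 17 partners of LAR-type phosphatases 4 (23.5%) rose and 1 (5.88%) fell, against 5.59% and 4.46% of all genes tested. Ppfibp2, a liprin-beta that belongs to the scaffold family bound by these phosphatases inside the cell, fell from 131 ± 0.655 to 77.7 ± 4.29 CPM (log2 fold change -0.75 ± 0.11, adjusted p = 0.0042 from edgeR). The synaptic ligands or co-receptors Il1rap (0.80), Slitrk6 (1.31), Ntrk3 (1.75) and Gpc4 (1.07) rose on the log2 scale, with adjusted p of 0.032, 0.040, 0.016 and 0.022. All 4 calls were lost on leaving out M1 (adjusted p from 0.067 to 0.13) or M3 (from 0.092 to 0.14). Those of Il1rap, Slitrk6 and Gpc4 were also lost without M2 (0.12, 0.12 and 0.059), those of Il1rap and Slitrk6 without W2 (0.084 and 0.105), that of Il1rap without W3 (0.11) and that of Slitrk6 without W1 (0.052). Of 14 other receptor tyrosine phosphatases tested, Ptprc alone passed. Ptprc is the leukocyte marker CD45, and it rose from 0.718 ± 0.214 to 12.7 ± 2.85 CPM (4.13 ± 0.37, adjusted p = 0.00083), beside the rise of the leukocyte markers.

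The activating ligands of Alk were nearly absent from the counts. Alkal1 had 0 counts in all 6 libraries, and Alkal2 had counts in M1 alone, at 0.612 CPM. Ptn, a heparin-binding growth factor that has been proposed as an Alk ligand and also binds LAR-type phosphatases, rose as the only call among 6 Alk ligands and related kinases tested, from 10.8 ± 4.11 to 39.3 ± 4.30 CPM (log2 fold change 1.86 ± 0.29, adjusted p = 0.0068 from edgeR). Mdk, the other member of the Ptn family, was 3.79 ± 2.80 CPM in wildtype and 11.3 ± 3.32 CPM in mutant and did not pass (adjusted p = 0.19). Of 9 Alk signalling adaptors Irs1 rose (1.19 ± 0.31, adjusted p = 0.048), a call kept among the single-library omissions without M2 and lost without any of the others, at 0.065 to 0.17.

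Other subunits of the complexes that Cyfip2 and Golga7b belong to were mostly not called. Of 12 genes of the WAVE complex and the FMRP family, 1 fell. Nckap1, Abi1 and Brk1, core subunits of the WAVE complex, had log2 fold changes of -0.15 ± 0.15, -0.01 ± 0.12 and -0.01 ± 0.25, and Fmr1 of -0.05 ± 0.12, and none of the 4 passed (adjusted p from 0.62 to 0.99, edgeR). These 4 were named after their values were seen. Fxr2, a relative of Fmr1, fell by 0.56 (SE 0.13, adjusted p = 0.037), a call that was kept on leaving out W1 and lost on leaving out any other library, at 0.098 to 0.14. Of 20 palmitoyltransferases Zdhhc18 fell (-1.23 ± 0.22, adjusted p = 0.013, and 0.068 without M3). Zdhhc5, the partner of Golga7b, was 455 to 657 CPM in wildtype and 405 to 429 CPM in mutant and did not pass (adjusted p = 0.24). Of 6 depalmitoylating thioesterases Abhd17a fell (-0.80 ± 0.19, adjusted p = 0.036), with the call lost without W2 (0.11), M1 (0.080), M2 (0.13) or M3 (0.16).

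For Syt7, the wider exocytosis machinery showed 1 call among 25 genes. Rab27a, a small GTPase of secretory lysosomes and melanosomes, was 17.2, 35.1 and 24.9 CPM in W1, W2 and W3 and 226, 186 and 231 CPM in M1, M2 and M3 (log2 fold change 3.06 ± 0.25, adjusted p = 0.00065 from edgeR). Melanocyte markers moved with it in part, at 12.9 CPM in W1 and 248 to 428 CPM in mutant, but W2 held 318 CPM of them with a low Rab27a; their part was not tested. Sytl2, a Rab27 effector and the only call among 8 other C2-domain membrane proteins, rose by 2.09 (SE 0.47, adjusted p = 0.028), with the call lost without W3 (0.074), M1 (0.101), M2 (0.071) or M3 (0.099). For Raver2, the 3 PTB proteins it can bind did not pass, and Ptbp1 was 181 ± 36.3 CPM in wildtype and 170 ± 11.5 CPM in mutant (-0.09 ± 0.16, adjusted p = 0.78). For Phyhipl, phytanoyl-CoA hydroxylase (Phyh) was 15.4 ± 3.92 and 15.6 ± 4.22 CPM (0.03 ± 0.27, adjusted p = 0.97). Among ankyrin-repeat SAM proteins other than the Anks1 pair, Anks6, a protein of primary cilia, rose by 1.04 (SE 0.21, adjusted p = 0.018), with the call lost without W2 (0.064), W3 (0.055), M1 (0.067) or M3 (0.080).

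The genes whose levels over the 6 libraries were most like the mean profile of the 8 were Dlg2, Mmp28, Cdc42ep4, Tecr, Dsc3, Aagab, Gyg and Afap1l2, with Pearson r from 0.996 to 0.999 over 6 libraries that share the genotype split. Among 10161 candidates 778 had r over 0.9, so a high r mostly restates that split. Gyg was 164, 180 and 182 CPM in W1, W2 and W3 and 25.0, 27.0 and 20.3 CPM in M1, M2 and M3. Dsc3, a desmosomal cadherin of stratified epithelia, was 1469, 1432 and 1367 CPM in wildtype and 537, 496 and 489 CPM in mutant. Dlg2 was the one gene of these 8 that the partner lists also held.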

How the data were processed

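Cornea RNA of 3 wildtype and 3 heterozygous Pax6 mutant mice was sequenced as paired reads of 100 nucleotides with a stranded low-input kit for total RNA, per the labels' protocols. The submitters' processing notes name Trim Galore, HISAT2, SAMtools, HTSeq, edgeR and the build GRCm38. Tool versions and options, strandedness of counting included, are not stated there. The deposited files hold raw counts per Ensembl gene, not normalized by the authors. The 5 summary lines of each file, 53.3% of all lines' total, were left out. Names and positions came from GENCODE M21 (55240 of 55421 genes matched).

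Genes of low count were removed by filterByExpr (count 10, total 15), and counts were scaled by TMM and compared with edgeR 4.0.16 (R 4.3.3), using its quasi-likelihood test, Benjamini-Hochberg adjustment (0.05) and genotype as the only term. Levels are CPM; exon length is the union of annotated exons. Leaving 1 library out of a group, or 2, gives fits in which the spread is pooled over both groups. Within groups, library pairs had a chi-square per degree of freedom of 19.9 to 61.5, far over sampling noise, and each was counted as a replicate. Floors and intervals cover counting error only. The script was tested on simulated data.

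The 8 genes and all lists of relatives, partners and markers were chosen with earlier results of these data known. Named were the 8 genes, all relatives outside the synaptotagmins, synaptotagmins of at least 1 CPM or past the threshold, up to 4 called genes of each list and up to 2 that moved against them, and the 8 genes most alike in profile (log2 CPM with a prior count of 2, at least 5 CPM). Zdhhc5, Mdk, Ptbp1, Phyh, Alkal1 and Alkal2 were named outside this rule, as were the 4 WAVE and FMRP genes, to describe partners. A few genes that meet this rule are left out of the text. Alternatives were RLE factors, library totals, DESeq2 1.42.0, limma-voom (limma 3.58.1), no low-count filter, at least 1 CPM in 3 libraries, leaving out mitochondrial and structural RNAs, a sex covariate and leaving out each library; leaving out W1 and W3 together was chosen after seeing the data.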

Additional observations from a re-analysis of the deposited data

How the results depend on the processing

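All 8 genes stayed lower in mutant under all 15 alternatives, a direction that follows from their choice by these same libraries. Of 120 values of their log2 fold changes 114 moved by less than the spread within groups. The 6 others were Cyfip2 (-2.80) and Phyhipl (-3.59) without both W1 and W3, Anks1b (-6.35) without M3, Alk (-5.48) without M1 and with sex as a covariate, which sets M1 apart in the same way, and Golga7b (-9.94, no bound) without M2. Of the 20 called relatives and partners 8 kept their call throughout.

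Counts of calls moved more, and the cause was not tested. The count of genes higher in mutant was 850 and that of genes lower in mutant 679, against 1325 and 1033 with DESeq2, 1588 and 1137 with no low-count filter, 471 and 376 with sex as a covariate, and 528 and 421 without both W1 and W3. Leaving out 1 library gave 340 to 1227 higher and 271 to 847 lower, the fewest without M3 and the most without W1. Higher calls among the relatives (1) became 0 with library totals, limma-voom, sex as a covariate and without both W1 and W3, 2 with no filter and 0 to 2 without 1 library. Lower calls among them (1) became 2 with no filter and stayed 1 without 1 library. Higher calls among the partners (11) became 17 with no filter, 3 with sex as a covariate, 5 without both W1 and W3 and 3 to 14 without 1 library. Lower calls among them (7) became 17 with no filter, 4 with sex as a covariate and 4 to 7 without 1 library.

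No paired analysis was possible because the labels give the genotypes no shared replicate numbers. Depth limits the mutant levels of Anks1b, Alk and Golga7b most: 3 counts were worth 0.135 to 0.184 CPM per mutant library.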

Other observations

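Since 3 of the 8 genes, Ptprd, Anks1b and Alk, span over 500 kb, the calls over all genes tested were counted by span. Of 162 genes of 500 kb or more, 8.64% were lower and 9.26% higher in mutant. Of 1865 genes of 100 to 500 kb, 7.18% were lower and 8.95% higher, and of 8506 genes of 10 to 100 kb, 4.61% and 5.88%. Of 4670 genes under 10 kb, 2.98% were lower and 3.60% higher. Calls in both directions were thus more frequent among longer genes. The median total count over the 6 libraries, which bears on how readily a gene is called, was 733, 2272, 1889 and 476 in these classes from longest to shortest. The part of depth in this pattern was not tested.

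Homer2, Dlg2 and Gyg, none of them among the 8 genes, were each high in W1, W2 and W3 alike, while Syt1 and Syp were high in W3 alone. Syp, a synaptic vesicle protein, was 0.397, 1.14 and 30.0 CPM in W1, W2 and W3. Without W3 the log2 fold change of Syt1 changed from -2.19 to 2.75 and passed the test in neither fit (adjusted p = 0.47 and 0.24, edgeR). On that omission the 8 genes went from -5.85 to -6.13 (Golga7b), -5.21 to -5.30 (Anks1b), -4.60 to -4.71 (Alk), -4.07 to -3.95 (Phyhipl), -3.87 to -3.77 (Syt7), -3.81 to -3.86 (Raver2), -3.09 to -3.13 (Cyfip2) and -2.33 to -2.30 (Ptprd). The 8 genes were chosen by their difference between the genotypes, and the part of neural tissue in any of these levels was not tested.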
